A study of Mus musculus with 20 samples.

Results

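The nuclear genes for the subunits of oxidative phosphorylation were followed across lungs of smoke-exposed and air-kept mice. The genes were taken by symbol, as all those of the platform annotation that start with Ndufa, Ndufb, Ndufc, Ndufs, Ndufv, Sdha, Sdhb, Sdhc, Sdhd, Uqcr, Cox4, Cox5, Cox6, Cox7, Cox8 or Atp5, with a probe detected (detection p under 0.05) on 3 or more of 20 arrays. The array carried 87 such genes, and 84 passed, out of 12719 features tested. Cox7b2, Ndufs1 and Uqcrq did not pass. Of the 84, 32 belonged to complex I, 3 to complex II, 7 to complex III, 17 to complex IV and 16 to complex V, which made 75 subunits. Complex I included Ndufs5-ps, which the annotation lists as a pseudogene of the subunit gene Ndufs5, and Ndufa4 was counted with complex IV, in which its protein is now placed. The other 9 were assembly factors, which help to build complexes I and II without staying in them (Ndufaf1, Ndufaf3, Ndufaf4, Ndufaf5, Ndufaf7 and Sdhaf1 to Sdhaf4). The probes used for 81 of the 84 were detected on all 20 arrays. The exceptions were Atp5k (18 arrays), Ndufb11 (15 arrays) and Uqcrfs1 (7 arrays).

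Oxidative phosphorylation takes place in the inner mitochondrial membrane. Complex I (NADH dehydrogenase) and complex II (succinate dehydrogenase) pass electrons to coenzyme Q, complex III (cytochrome bc1) passes them to cytochrome c, and complex IV (cytochrome c oxidase) passes them to oxygen. The proton gradient so built drives ATP synthase, complex V. A few subunits of complex IV have isoforms made mainly in heart and skeletal muscle, while Cox4i2 is an isoform known from lung and from pericytes.

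Total RNA of whole lung from male AKR/J mice, an inbred strain, aged 6 to 8 weeks at the start, was measured on Illumina bead arrays, 1 array per sample. Cigarette smoke plus losartan (CS_Los) had 3 arrays, cigarette smoke (CS) 7, room air plus losartan (RA_Los) 3 and room air (RA) 7. Smoke came from 2R4F research cigarettes for 2 h a day on 5 days a week, with carbon monoxide averaging 350 ppm; the protocol gives 6 to 7 weeks of exposure and the design text 2 months. Losartan blocks the type 1 receptor for angiotensin II and was given by mouth at 0.6 g/L. No genotype or other treatment was named, so the groups shared strain, sex and starting age. The labels name batch 1, with 3 arrays of each group, and batch 2, with 4 CS and 4 RA arrays (CS 4 to 7 and RA 4 to 7 here). The smoke comparison carried batch as a term, and losartan was compared within batch 1. Whether each array stands for its own mouse is not given in the labels, and p-values therefore refer to the spread among the samples measured. Values are log2 signals after background correction and quantile normalization, and a gene was called at a limma p below 0.05 after Benjamini-Hochberg adjustment over all 12719 features. A level here belongs to 1 probe, and levels of different genes are not compared.

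The arrays held 15089 to 15784 detected probes in batch 2 and 13946 to 15155 in batch 1. The surfactant gene Sftpc, the defining product of alveolar type II cells, lay between 14.37 and 15.01 on all 20 arrays, and 1 of 21 lung cell markers tested was called in CS against RA (Tubb4b, a tubulin of ciliated cells, 0.22 ± 0.07 SE). Muscle markers varied widely between samples of each group. Among them Myl7, a myosin light chain of the heart atrium, ran from 10.15 to 11.98 in CS_Los, from 6.77 to 11.85 in CS, from 5.83 to 12.29 in RA_Los and from 6.90 to 11.21 in RA. The mean level over 24 muscle genes ran from 7.52 to 9.16 in CS_Los, from 5.37 to 8.86 in CS, from 5.39 to 10.18 in RA_Los and from 5.51 to 8.96 in RA. Per array, 19 to 24 of the 24 were detected in CS_Los, 11 to 23 in CS, 11 to 24 in RA_Los and 14 to 23 in RA. Their summed signal was 13400 to 34690 in CS_Los, 1848 to 31570 in CS, 1910 to 74290 in RA_Los and 1765 to 32210 in RA.

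In smoke-exposed lung, oxidative phosphorylation genes stayed close to their room-air level. None of the 84 was called in CS against RA, while 12.8% of all features were, 6.09% higher and 6.73% lower. At an unadjusted p under 0.05, limma gave 9 of the 84 (10.7%), against 26.8% of all features. The log2 difference was above 0 for 62 of 84 genes, with a median of 0.066 against -0.0048 over all features. The smallest adjusted p was 0.0611. With 1 array left out, 0 to 3 members were called: Ndufa10, Ndufb3 and Ndufb11 higher without RA 7, Ndufb11 and Sdhaf1 higher without CS 1, Sdhaf1 higher without RA 2, Ndufb11 higher without RA 4, and Ndufaf5 lower without RA 6. The share of all features called in these fits is not given here, and it was 12.8% with no array left out. In the full fit, the 95% intervals of 79 genes lay within -0.5 to 0.5 and those of 83 within -1 to 1. Apart from the 3 muscle isoforms of complex IV, no interval bound was farther from 0 than 0.81, a 1.75-fold difference. The median standard error was 0.087 for the members and 0.097 for all features.

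**Figure D1:**
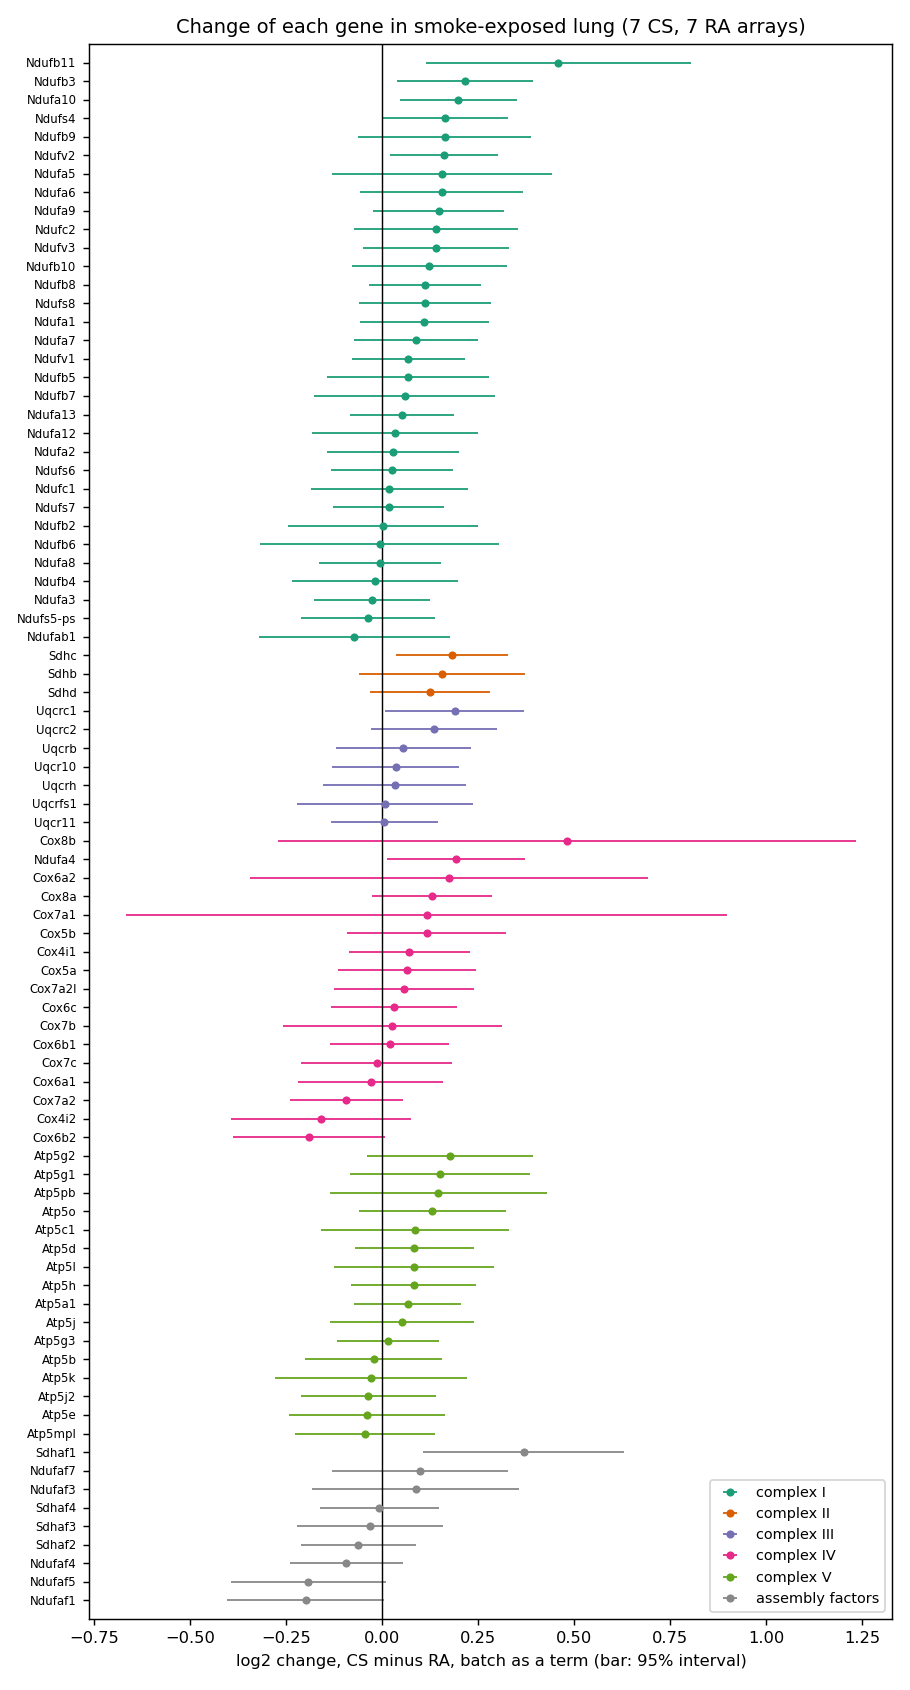
Log2 difference of each of the 84 genes in CS against RA lung (horizontal axis, batch as a term, 7 CS and 7 RA arrays), grouped and coloured by complex; points are estimates and bars 95% intervals. Most points lie slightly right of 0 (62 of 84), none was called, and the widest bars belong to Cox8b, Cox7a1 and Cox6a2.

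Complex I, where electrons from NADH enter, had 26 of 32 genes above 0 and a median difference of 0.079. Its span ran from -0.072 ± 0.118 SE for Ndufab1, the mitochondrial acyl carrier protein, to 0.46 ± 0.163 SE for Ndufb11, an accessory subunit of the membrane arm (adjusted p = 0.078). Ndufb11 measured 6.17, 6.43, 6.13 and 6.55 in CS of batch 2, against 6.34, 5.90, 5.48 and 6.35 in RA of batch 2. In batch 1 it measured 4.87, 5.88 and 5.26 in CS, against 4.52, 4.91 and 4.57 in RA. The groups overlapped in both batches, and the probe was above background on 2 of the 3 CS and 0 of the 3 RA arrays of batch 1. A second probe of Ndufb11 gave 0.12 ± 0.082 SE. The other complex I genes at an unadjusted p under 0.05, named after their values were seen, were Ndufb3 (0.22 ± 0.084 SE), Ndufa10 (0.20 ± 0.072), Ndufs4 (0.16 ± 0.078) and Ndufv2 (0.16 ± 0.066). Ndufv2 carries an iron-sulfur centre of the NADH-oxidising arm and the others are accessory subunits.

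Complex II is the only complex whose subunits all come from nuclear genes, and it also serves the tricarboxylic acid cycle. Sdhb, its iron-sulfur subunit, and the membrane anchors Sdhc and Sdhd were tested, and Sdha is not analysed here. Sdhc measured 10.26, 10.29, 10.16 and 10.20 in CS of batch 2, against 10.20, 10.06, 9.96 and 10.24 in RA of batch 2. In batch 1, Sdhc measured 10.16, 10.22 and 10.08 in CS, against 9.89, 9.95 and 9.78 in RA. The groups were apart in batch 1 and overlapped in batch 2, and the difference over both was 0.18 ± 0.069 SE (adjusted p = 0.097). A second kept probe of Sdhc gave the opposite sign, -0.075 ± 0.090 SE. Sdhb differed by 0.16 ± 0.102 SE and Sdhd by 0.12 ± 0.073 SE. With the probes used, complex II had the highest median of the 5 complexes, 0.16. That median is the value of 1 Sdhb probe, and the other kept probes of Sdhb gave 0.051 ± 0.120 SE and 0.113 ± 0.113 SE. The rank of complex II thus rests on 3 genes and on the probes chosen for them.

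In complex III, all 7 genes lay above 0, from 0.0058 ± 0.065 SE for Uqcr11, a small accessory subunit, to 0.19 ± 0.086 SE for Uqcrc1, a core protein (adjusted p = 0.17), with a median of 0.035. Fitted apart, batch 2 placed 4 of the 7 above 0 and batch 1 all 7. The probe of Uqcrfs1 (0.0084) was above background on 0 CS and 0 RA arrays of batch 1. Uqcr11 lay below 0 under 75th percentile centring, median centring, cyclic loess and the authors' log2 values. Uqcrc1 measured 10.05, 10.18, 10.06 and 10.29 in CS of batch 2, against 10.01, 9.86, 10.16 and 10.25 in RA of batch 2. It measured 9.43, 9.49 and 9.54 in CS of batch 1, against 9.07, 9.35 and 9.01 in RA of batch 1. The groups of batch 1 did not overlap, while those of batch 2 did.

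In complex IV, 12 of 17 genes lay above 0 with a median of 0.058, and 9 of 14 with a median of 0.028 when the 3 muscle isoforms were left out. Ndufa4 differed by 0.19 ± 0.085 SE (adjusted p = 0.16). Cox6b2, the testis isoform of subunit VIb, gave the lowest value of complex IV, -0.19 ± 0.093 SE, and its counterpart Cox6b1 0.019 ± 0.073. In complex V, 11 of 16 genes lay above 0 with a median of 0.074, between -0.045 ± 0.086 SE for Atp5mpl, a small subunit of the membrane part, and 0.18 ± 0.102 SE for Atp5g2. Atp5g1, Atp5g2 and Atp5g3 encode the same proton-carrying c subunit with different import sequences. Atp5g1 differed by 0.15 ± 0.110 SE and Atp5g3 by 0.014 ± 0.063. Cox6b1 and Atp5g3 turned negative under median centring, 75th percentile centring and the authors' log2 values.

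Among the 9 assembly factors, 3 lay above 0 and the median was -0.032. Sdhaf1, which serves the insertion of iron-sulfur clusters into Sdhb, had the smallest adjusted p of all 84 genes (0.37 ± 0.124 SE, adjusted p = 0.0611). It measured 9.36, 9.40, 9.20 and 9.59 in CS of batch 2, against 8.89, 8.61, 8.79 and 8.96 in RA of batch 2, and these groups did not overlap. In batch 1 it measured 8.60, 9.28 and 9.35 in CS, against 8.90, 9.12 and 8.92 in RA, and CS 1 lay below all 3 RA arrays. Sdhaf1 was the 1 member called in batch 2 alone, where it rose by 0.57 ± 0.110 SE (adjusted p = 0.014). In batch 2 alone 5.51% of all features were called, 2.42% higher and 3.09% lower. In batch 1 it differed by 0.097 ± 0.245 SE in the fit that also held the losartan arrays, where 0 members and 0.00786% of features were called. With the 3 CS and 3 RA arrays of batch 1 alone, 83 features and 0 members were called, and 4 members had an unadjusted p under 0.05 by limma, against 0 in the fit over 12 arrays. In that 12-array fit 7.85% of all features had such a p, and the share with 3 CS and 3 RA arrays alone is not given here. Without RA 4, CS 5 and CS 7, the batch 2 arrays with the highest muscle marker levels, the batch 2 difference of Sdhaf1 was 0.49 ± 0.144 SE and was not called (adjusted p = 0.18), with 2 CS and 3 RA arrays left. Ndufaf1, at -0.20 ± 0.097 SE, was the lowest of all 84.

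The batches, fitted apart, both placed 44 of the 84 genes higher and 10 lower in CS. The matching share over all features is not given here. Taken singly, batch 2 placed 60 members higher (71.4%, against 49.2% of all features) and batch 1 58 (69%, against 50.3%). With median centring 39 lay higher in batch 2 and 32 in batch 1. Median differences in batch 2 were 0.060 for complex I, 0.12 for complex II, 0.012 for complex III, 0.059 for complex IV and 0.079 for complex V. In batch 1 they were 0.125, 0.13, 0.067, 0.055 and 0.054 in the same order. The interaction of smoke with batch, which tests whether the smoke difference itself differed, called 0 members and 0.0157% of features. It gave 0 members an unadjusted p under 0.05 by limma, against 4.65% of all features.

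**Figure D2:**
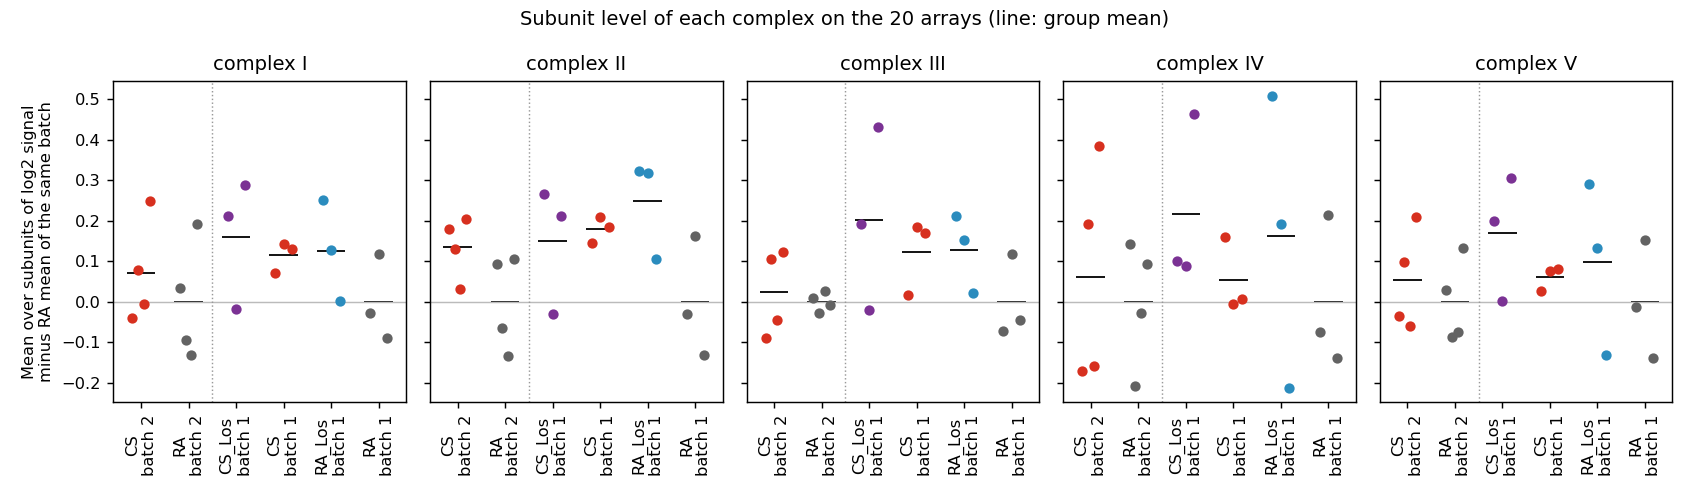
Mean over the subunits of each complex of the log2 signal on each of the 20 arrays, minus the mean of the RA arrays of the same batch (vertical axis), by group and batch; points are arrays and lines group means. Arrays of different groups overlap in each complex, and complex IV spreads most (pooled SD 0.229, against 0.115 to 0.137 for the other complexes).

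Averaged over its subunits on each array and set against the RA mean of its batch, complex II stood at 0.15 ± 0.061 in CS and 0 ± 0.120 in RA (SD, n = 7 each). The 7 CS arrays lay between 0.032 and 0.208, and the 7 RA arrays between -0.133 and 0.162, so they overlapped. Complex I stood at 0.089 ± 0.097 in CS and 0 ± 0.120 in RA. For complexes I, III, IV and V, the SD among the CS arrays was larger than the difference of the group means. These means carry no test here, since members of a complex are not replicates.

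The sign of the small smoke difference depended on how arrays were scaled. With each array centred on its median, 33 of 84 genes lay above 0, and the medians were -0.069 for complex III, -0.048 for complex IV and -0.036 for complex V. With 75th percentile centring 42 lay above 0, and complex III (-0.033) and complex IV (-0.012) were negative. With the authors' log2 values 44 lay above 0, complex III was at -0.017 and complex IV at 0. Cyclic loess gave 62, as did quantile normalization within each batch. With the probes used, complexes I and II stayed above 0 under all 7 scalings run, at 0.0025 to 0.085 and 0.080 to 0.16. The number called was 0 in 6 of these scalings and 1, Sdhaf1, without background correction. Of all features, 11.7% to 13.8% were called under the 7 scalings. Relative to all features, the median of the members lay 0.071 higher in the main scaling, 0.012 higher with median or 75th percentile centring and 0.029 higher with the authors' values.

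**Figure D3:**
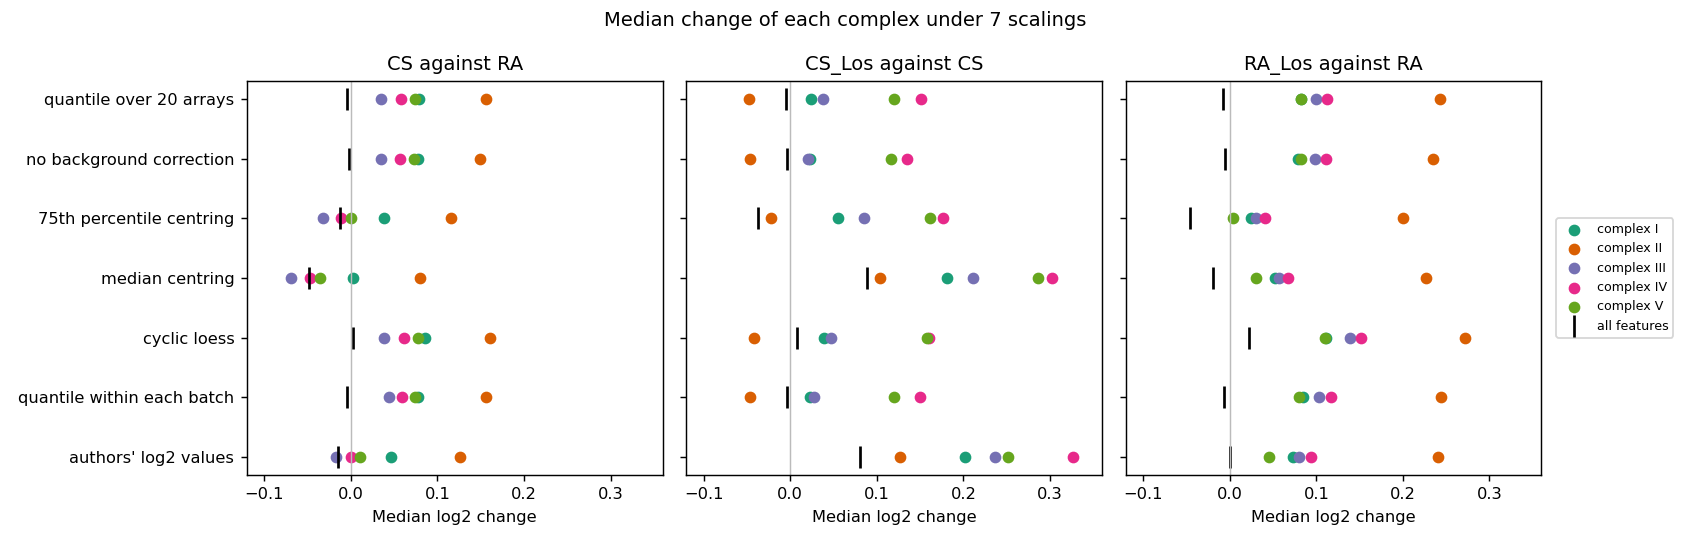
Median log2 difference of each complex (coloured points) and of all features (black ticks) under 7 scalings (rows), for CS against RA, CS_Los against CS and RA_Los against RA. In the smoke panel, complexes III, IV and V lie on either side of 0 according to the row. With the probes used, the complex II point lies farthest right there in every row.

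Losartan gave no called change in these genes. In RA_Los against RA of batch 1, 0 of 84 were called and 0.00786% of all features. An unadjusted p under 0.05 by limma was found for 3 members (3.57%), against 4.76% of all features. The median difference was 0.082, against -0.0073 over all features, and ran from 0.082 in complexes I and V to 0.24 in complex II. With 75th percentile centring it was 0.021, with 0.025 in complex I, 0.0032 in complex V and 0.20 in complex II. Of the muscle markers 22 of 24 lay above 0 in this comparison with a median of 0.46 and 0 called, and their part in it was not tested. Sdhd measured 10.75, 10.92 and 10.41 in RA_Los, against 10.15, 10.39 and 10.38 in RA, which did not overlap (0.39 ± 0.167 SE, adjusted p = 0.96). The share of all features without overlap between these groups is not given here. Ndufa4 differed by 0.43 ± 0.158 SE and Atp5g2 by 0.43 ± 0.176, both with an adjusted p of 0.96. With 3 arrays a group the median standard error was 0.18, larger than in the smoke comparison.

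In CS_Los against CS, 0 members and 0% of all features were called. An unadjusted p under 0.05 by limma was found for 0 members, against 5.94% of all features. Complex IV had a median of 0.15 and complex V 0.12, complex I 0.024, complex III 0.037 and complex II -0.047. With median centring they were 0.30 for complex IV, 0.29 for V, 0.18 for I, 0.21 for III and 0.10 for II, where the median of all features was 0.088, and with the authors' log2 values complex II lay at 0.13. In the same comparison 23 of 24 muscle markers lay above 0 with a median of 0.56, and 5 of 5 erythroid genes with a median of 1.76, with 0 called in either list, and their part in these medians was not tested. In CS_Los against RA_Los, 0 members and 0% of features were called. Cox6a1, the ubiquitous isoform of subunit VIa, had the smallest unadjusted p there. It measured 11.82, 11.62 and 12.32 in CS_Los, against 11.34, 11.35 and 11.58 in RA_Los, without overlap (0.50 ± 0.193 SE, adjusted p = 0.81). How many of all features lacked overlap there is not given here. In CS_Los against RA, 0 members and 0.00786% of features were called, with 68 of 84 genes above 0 and a median of 0.147. Of all features 47.9% lay above 0, with a median of -0.011. Over the 7 scalings, 60 to 79 members lay above 0, with medians from 0.111 to 0.212. In the main scaling 24 of 24 muscle markers lay above 0 in CS_Los against RA, with a median of 0.73 and 0 called. Their part in the values of the members was not tested. The interaction of losartan with smoke called 0 members and 0% of features. These comparisons share arrays with each other, and their values are given side by side only. CS_Los 2 stood lowest of its group in all 5 complexes, at -0.019 for complex I, where CS_Los 1 and CS_Los 3 stood at 0.211 and 0.289.

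The largest spread between samples belonged to the heart and skeletal muscle isoforms of complex IV. Cox8b had a pooled within-group SD of 0.97, Cox7a1 of 0.97 and Cox6a2 of 0.74. The next member, Ndufb11, had 0.42, and the median was 0.20 for the members and 0.22 for all features. Cox8b measured 7.98, 8.26 and 8.79 in CS_Los and 9.91, 9.12 and 6.63 in RA_Los. In CS it ran from 7.48 to 9.44 with a median of 8.00, and in RA from 7.13 to 9.07 with a median of 7.44. Cox7a1 measured 8.91, 9.22 and 10.23 in CS_Los and 10.97, 9.81 and 7.97 in RA_Los. In CS it ran from 7.33 to 9.86 with a median of 8.66, and in RA from 7.73 to 9.63 with a median of 8.60. Cox6a2 measured 10.34, 10.97 and 11.18 in CS_Los and 12.30, 11.09 and 9.44 in RA_Los. In CS it ran from 9.87 to 11.24 with a median of 10.38, and in RA from 9.86 to 11.06 with a median of 10.17. All 4 groups overlapped for each of these genes, and RA_Los 1 was the highest of the 20 arrays. RA_Los 3 was the lowest array for Cox8b and Cox6a2, and 3 arrays lay below it for Cox7a1. CS against RA gave 0.48 ± 0.356 SE for Cox8b, 0.12 ± 0.370 for Cox7a1 and 0.17 ± 0.245 for Cox6a2, none called.

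These isoforms moved with the muscle markers of the sample. A fit over all 20 arrays with a term for each group in each batch and the mean of the 24 muscle markers as a slope was added after this spread was seen; the 3 isoforms are not among the 24. It called 5 of 84 members (5.95%), all higher with the marker level, against 2.19% of all features, of which 2.03% higher. Per log2 unit of the marker mean, Cox7a1 rose by 0.64 ± 0.040 SE (adjusted p = 9.6e-10), Cox8b by 0.64 ± 0.043 (adjusted p = 3.6e-09) and Cox6a2 by 0.48 ± 0.038 (adjusted p = 3.1e-08). Their ubiquitous counterparts gave 0.040 ± 0.025 for Cox7a2, 0.032 ± 0.035 for Cox8a and 0.0035 ± 0.038 for Cox6a1, none called. Within batch 2 alone and within batch 1 alone the 3 isoforms were the members called, beside 1.31% and 0.755% of all features. Atp5g1 rose by 0.18 ± 0.035 (adjusted p = 0.0070) and Cox5a, a nuclear-encoded subunit of complex IV, by 0.11 ± 0.028 (adjusted p = 0.041), with both calls lost without RA_Los 1 or RA_Los 3. Over the 20 fits that left out 1 array, the slope stayed at 0.141 to 0.188 for Atp5g1 and 0.096 to 0.119 for Cox5a. The Cox5a call was also lost under 3 other scalings, and without RA 1, RA 2, RA 3, RA 4, RA 5, CS 2, CS 4, CS 6, CS 7 or CS_Los 1. The slope was above 0 for 72 of 84 members and for 42.1% of all features, with complex medians from 0.032 in complex I to 0.062 in complex IV. Markers of other cells moved with the same muscle level. Of the brown adipose list, Adipoq, a hormone of fat cells, rose by 1.11 ± 0.149 (adjusted p = 8.7e-05) and Cidea, a lipid droplet protein, by 0.33 ± 0.078 (adjusted p = 0.027). These were the 2 of its 7 genes on the array that passed the filter; Ucp1, which defines brown fat, was detected on 1 array, Dio2 and Fabp4 on 1 each, and Elovl3 and Plin1 on 0. Cox7a1 and Cox8b are also known from brown fat. Adipoq ran from 7.33 to 9.26 in CS_Los, from 4.76 to 9.28 in CS, from 4.60 to 9.78 in RA_Los and from 4.50 to 8.38 in RA. Of the 21 lung cell markers 3 rose, Acta2 (0.22), Myh11 (0.23) and Des (0.22), all of smooth or other muscle. The separate parts of heart, smooth muscle and fat RNA in the slopes of the members were not tested. In whole lung, more cells of such a type and more of these transcripts per cell cannot be told apart.

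**Figure D4:**
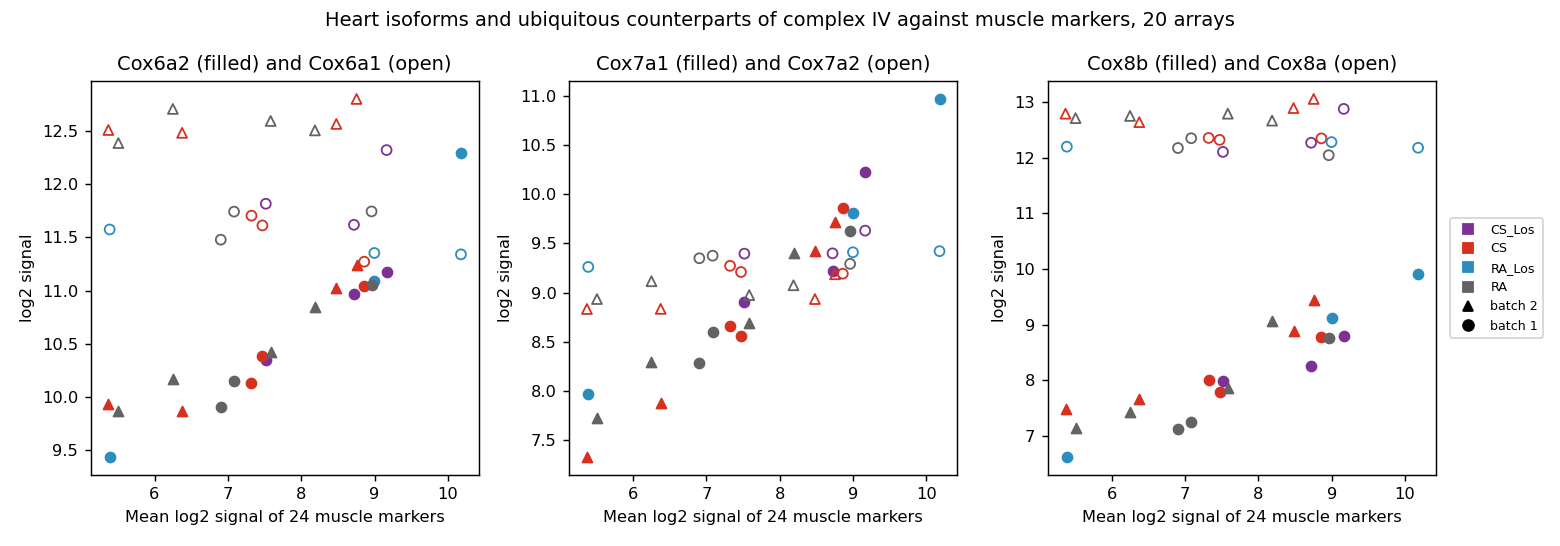
Log2 signal of the 3 muscle isoforms of complex IV (filled) and their ubiquitous counterparts (open) on each of 20 arrays against the mean log2 signal of 24 muscle markers; colour gives the group, triangles batch 2 and circles batch 1. Filled points lie higher toward the right (slopes 0.48 to 0.64), while open points stay nearly level (slopes 0.0035 to 0.040); heights of different genes are not comparable.

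With the muscle marker level as a further term, also added after the data were seen, CS against RA still called 0 members. The share of all features called in that fit is not given here. In it Cox8b was 0.29, Cox6a2 0.044 and Cox7a1 -0.089, none called. The muscle markers themselves had 0 of 24 called in CS against RA, with 22 above 0 and a median of 0.34. Cidea and Adipoq were not called in CS against RA.

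RefSeq promoter windows of 250 bases before to 50 after the start (GRCm38.p6) were matched by symbol for 72 members and 27018 genes, and searched on both strands, and Cox6a2 had no entry. The nuclear respiratory factor 1 (NRF1) site, written GCGCA, any base, then GCGC, was present in 25.0% of members and 5.19% of all genes. The ETS site CCGGAAG, bound by GABP, was in 26.4% and 9.93%, the YY1 site AAGATGGC in 13.9% and 3.19%, and the ERR site TCAAGGTCA in 2.78% and 0.466%. TATAAA was in 9.72% and 15.7%, the muscle E-box CAGCTG in 6.94% and 18.3%, and a MEF2 site in 0% and 0.637%. The windows of Cox7a1 and Cox8b held none of the NRF1, ETS, YY1, ERR or MEF2 letters, and Cox8b held TATAAA at position 4 and CAGCTG at -19 and 16, counted from the start. The first 250 bases of 4 windows are shown to set the isoforms that spread with muscle markers beside Cox6a1 and Sdhd, whose slopes on these markers were not called. Among the other uncalled counterparts, the window of Cox7a2 held none of the motifs named, and that of Cox8a the ETS site only. Lack of the NRF1, ETS, YY1, ERR and MEF2 letters was therefore not particular to the muscle isoforms. Capitals mark matches to the motifs named, on either strand, and none of them overlap.
Cox7a1, chr7:30183921-30184170, + strand: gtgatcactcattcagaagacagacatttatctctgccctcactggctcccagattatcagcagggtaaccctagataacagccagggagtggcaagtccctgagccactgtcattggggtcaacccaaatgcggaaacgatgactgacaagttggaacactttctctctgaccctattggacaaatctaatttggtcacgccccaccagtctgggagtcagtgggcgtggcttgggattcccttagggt
Cox8b, chr7:140900447-140900696, - strand: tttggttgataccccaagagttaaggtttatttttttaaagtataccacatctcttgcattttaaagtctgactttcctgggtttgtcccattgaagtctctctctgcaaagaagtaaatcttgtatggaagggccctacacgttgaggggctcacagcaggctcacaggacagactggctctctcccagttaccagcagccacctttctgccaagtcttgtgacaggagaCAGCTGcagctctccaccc
Cox6a1, chr5:115348959-115349208, - strand: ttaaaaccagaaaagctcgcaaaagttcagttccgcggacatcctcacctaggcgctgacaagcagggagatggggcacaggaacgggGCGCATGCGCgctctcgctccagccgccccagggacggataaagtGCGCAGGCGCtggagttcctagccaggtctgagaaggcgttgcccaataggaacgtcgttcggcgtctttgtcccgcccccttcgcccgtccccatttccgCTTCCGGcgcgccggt
Sdhd, chr9:50603850-50604099, - strand: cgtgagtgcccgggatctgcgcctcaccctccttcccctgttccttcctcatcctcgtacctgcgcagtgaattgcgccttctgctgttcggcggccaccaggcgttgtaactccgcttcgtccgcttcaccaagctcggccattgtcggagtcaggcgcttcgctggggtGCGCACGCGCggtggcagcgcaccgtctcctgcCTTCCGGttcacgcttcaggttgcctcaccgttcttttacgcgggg
A match is a description of these letters and not a bound site. In the window of Cox6a1 the capitals are 2 NRF1 matches at -162 and -117 and an ETS match at -16, and in that of Sdhd an NRF1 match at -79 and an ETS match at -46. The Sdhd window also held an ERR match at 36, beyond the bases shown.

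Cox4i2 and its ubiquitous counterpart Cox4i1 encode the largest nuclear subunit of complex IV. Cox4i2 measured 6.99, 7.01, 7.04 and 6.87 in CS of batch 2, against 6.91, 6.64, 7.43 and 7.04 in RA of batch 2. In batch 1 it measured 7.59, 7.73 and 8.10 in CS_Los, 7.57, 7.72 and 7.71 in CS, 8.03, 7.06 and 7.82 in RA_Los and 7.80, 7.97 and 8.24 in RA. CS lay below all RA arrays in batch 1 and among them in batch 2, and the difference over both was -0.16 ± 0.111 SE (adjusted p = 0.39). Cox4i1 differed by 0.071 ± 0.074 SE, and by -0.050 under median centring.

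The batch of the arrays went with far larger differences in these genes than smoke did. In batch 2 against batch 1, over the 14 CS and RA arrays, 60 of 84 members were called (71.4%), against 59.3% of all features. Of the 60, 43 rose (27.9% of all features were called higher) and 17 fell (31.4% called lower). Of the 24 muscle markers, only 2 lay above 0 and 3 were called lower, with a median of -0.77. Their part in the batch differences of the members was not tested. ATP synthase subunits lay at both ends. Atp5k, subunit e of the membrane part, measured 4.79, 5.18, 5.31 and 5.16 in CS of batch 2, against 7.74, 7.02 and 7.20 in CS of batch 1. In RA it measured 4.98, 5.19, 4.78 and 5.07 in batch 2, against 7.45, 7.64 and 7.51 in batch 1. In batch 2 the Atp5k probe was above background on 3 CS and 3 RA arrays and at background on 1 of each. It fell by 2.37 ± 0.119 SE (adjusted p = 3.3e-10), with no overlap between batches. Atp5g2 measured 9.32, 9.26, 9.14 and 9.51 in CS of batch 2, against 7.72, 8.15 and 7.71 in CS of batch 1. In RA it measured 9.17, 9.28, 8.96 and 9.47 in batch 2, against 7.41, 7.75 and 7.53 in batch 1. It rose by 1.55 ± 0.103 SE (adjusted p = 4.3e-09), again with no overlap.

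Other genes that fell were Cox7b, a small complex IV subunit (-1.64), Ndufb4, an accessory subunit of complex I (-1.31), Atp5e, the epsilon subunit of complex V (-0.94), the assembly factor Ndufaf5 (-0.86), Cox4i2 (-0.84) and Atp5a1, the alpha subunit of the catalytic head of complex V (-0.84). A second kept probe of Ndufaf5 gave the opposite sign, 0.21 ± 0.097 SE, and was not called (adjusted p = 0.073). Ndufb5 (-0.54), Sdhd (-0.52), Ndufab1 (-0.39), Cox7a2 (-0.30) and Ndufa13 (-0.29) also fell in the main scaling. Under the authors' log2 values Ndufb5 (0.08) and Sdhd (0.068) turned sign without a call, and Cox7a2 (0.29) and Ndufa13 (0.32) were called higher. Genes that rose included Ndufb6 (1.47), Cox7a2l, which takes part in supercomplex assembly (1.20), Atp5l (1.20), Ndufb11 (1.17), Atp5pb and Atp5o of the stator stalk (1.12 and 1.01), Ndufc2 (1.01), Cox6a1 (0.98), Ndufa6 (0.96), Ndufa5 (0.90) and Ndufa2 (0.82). Ndufb11's probe was detected on all CS and RA arrays of batch 2, and in batch 1 on 2 CS and 0 RA arrays. Called subunits moved in opposite directions within complex I (21 higher and 4 lower), complex II (1 and 1), complex IV (7 and 4) and complex V (7 and 5). In complex III 4 were called higher and 0 lower. The complex II gene called higher was Sdhb, whose probes disagreed in sign.

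**Figure D5:**
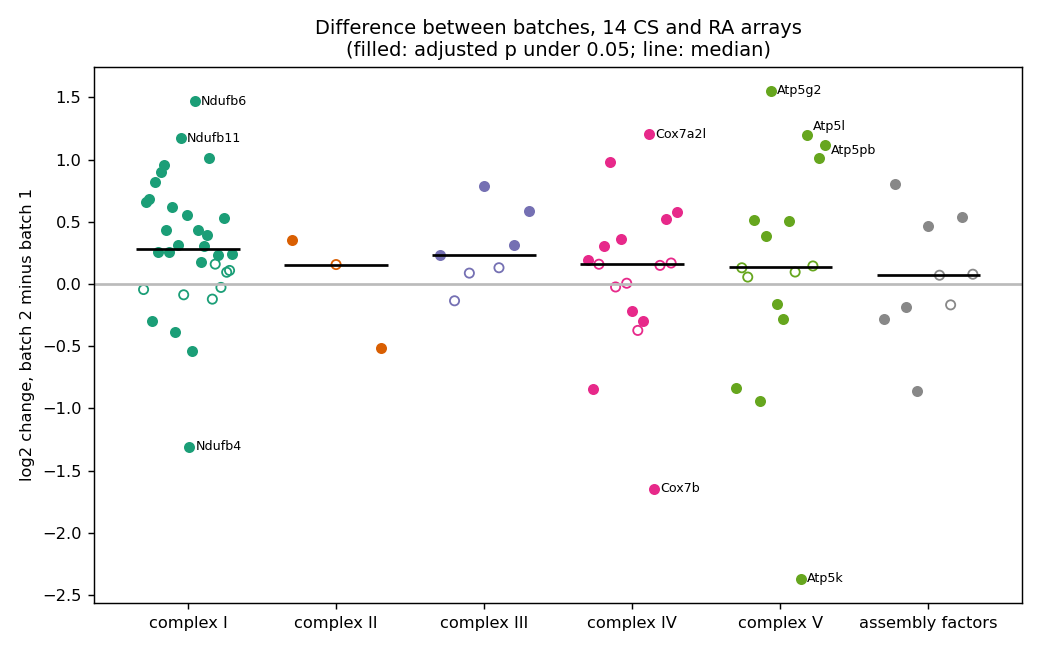
Log2 difference of each of the 84 genes between batch 2 and batch 1 (vertical axis, 14 CS and RA arrays, group as a term), by complex; filled points were called, open points were not, and lines are medians. Each of complexes I, IV and V holds genes more than 0.8 above and more than 0.8 below 0.

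Probes of 1 gene also disagreed between batches. Of the 13 members with several kept probes, 4 had probes called in opposite directions in batch 2 against batch 1, where 59.3% of all features were called. The share over all genes with several probes is not given here. In CS against RA the count was 0, but no probe of these genes was called there, so opposite calls could not arise. The probes of Atp5j, coupling factor 6 of the stator stalk, gave 1.10, -1.25 and 0.51, those of Ndufa5 0.90 and -0.70, and those of Sdhb -1.38, 0.35 and 0.68. Ndufs4 had probes at -0.43, -0.12, 0.64 and 0.29, of which that at -0.12 was not called. With such probes, 1 gene has no single batch difference, and the part of probe sequence or labelling in it was not tested. The median of all features in batch 2 against batch 1 was -0.031 in the main scaling, 0.26 with median centring, 0.27 with the authors' values and -0.25 with 75th percentile centring. Relative to that median, the members lay 0.22 higher in the main scaling and 0.43, 0.50 and 0.43 higher in the other 3. With median centring 69 members were called higher and 7 lower (90.5%, against 70.2% of all features), and with the authors' values 71 and 7 (92.9%, against 71.7%).

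The wider mitochondrial system was read in CS against RA from gene lists chosen for it. Of 28 other assembly factors, 0 rose and 2 fell (7.14%, against 12.8% of all features): Tmem70, for ATP synthase (-0.28 ± 0.075 SE), and Higd1a, for complex IV (-0.25 ± 0.079). Of 15 tricarboxylic acid cycle genes, 2 rose (13.3%, close to the 12.8% of all features): Idh3g, of isocitrate dehydrogenase (0.27 ± 0.067 SE), and Pdha1, of pyruvate dehydrogenase (0.24 ± 0.073). Of 68 mitochondrial ribosomal proteins, which translate the subunits encoded by mitochondrial DNA, 6 rose and 6 fell (17.6%, against 12.8% of all features). Mrpl15 fell by 0.77 ± 0.099 SE, Mrpl51 by 0.76 ± 0.106 and Mrpl57 by 0.55 ± 0.119, while Mrpl17 rose by 0.53 ± 0.093. None was called of 12 nuclear genes for cytochrome c, cytochrome c1, electron transfer flavoproteins and coenzyme Q enzymes, nor of 12 glycolysis genes or 11 mitochondrial carrier genes. Of 13 regulators of mitochondrial biogenesis, 0 were called. The coactivator Ppargc1a gave 0.36 ± 0.147 SE, Ppargc1b -0.037 ± 0.138, and the transcription factors Tfam 0.23 ± 0.074 (adjusted p = 0.056), Nrf1 0.155 ± 0.072, Esrra 0.086 ± 0.064 and Gabpa -0.11 ± 0.088.

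Of 59 cytosolic ribosomal proteins and 35 proteasome subunits, 0 were called, with medians of 0.058 and 0.105, beside 0.066 for the 84 members. Erythroid genes were lower in CS, with 4 of 5 called and a median of -1.70 (Hbb-bt -1.98 ± 0.448 SE, Hbb-b2 -1.87 ± 0.496, Alas2 -1.69 ± 0.481 and Slc4a1 -0.89 ± 0.200). Of 14 clock genes 3 rose and 5 fell, with Dbp 2.60 ± 0.269 and Nr1d1 2.17 ± 0.102 higher, and Per2 -1.60 ± 0.286 and Per1 -1.50 ± 0.272 lower. The part of red-cell content or of time of day in the values of the members was not tested.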

How the data were processed

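Whole-lung RNA of 20 samples was hybridised to Illumina mouse bead arrays. The deposited signals are linear, unnormalized intensities per probe, summarised with BeadStudio per the submitters' processing notes. Each signal column is followed by a deposited detection p-value, per the file headers. A second deposited table holds the authors' log2 values, which equal the log2 signal shifted to a median of 8 on each array (largest difference 0.0069); it served as an alternative. Median signals were 87.4 to 100.4 in batch 2 and 57.2 to 72.3 in batch 1. The number of arrays limits the precision.

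Background was corrected with nec of limma 3.58.1 in R 4.3.3 (offset 16), with quantile normalization over 20 arrays and log2. Of 25697 probes, 17012 with a detection p under 0.05 on 3 or more arrays were kept. The kept probe with the highest mean stood for a gene, named by the platform annotation; 11196 genes and 1523 unnamed probes were tested with lmFit and eBayes. CS against RA used 14 arrays with batch as a term, and losartan 12 arrays of batch 1.

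The members and lists were chosen with earlier results of these data known. Named genes were called members (the 12 highest and 12 lowest where over 24), the extremes of each complex, tissue isoforms with their counterparts, complex II, biogenesis regulators, members with discordant probes and up to 4 called genes of each list. The fits were tested on simulated data. Other normalizations, filters, batch treatments and left-out arrays were tried.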

Additional observations from a re-analysis of the deposited data

How the results depend on the processing

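For 90 results, 19 other settings and 20 fits with 1 array left out were run; quantile normalization within each batch gives no batch comparison. The setting without RA 4, CS 5 and CS 7, the muscle term and the muscle slope were chosen after seeing the data. The count of members called in CS against RA was 1, in place of 0, without background correction, with probes detected on all 20 arrays, with eBayes trend and robust, with arrayWeights and in batch 2 alone (Sdhaf1 each time), and 1 with a replicate block (Ndufb11, 0.46, adjusted p = 0.037). Of 13 same-numbered pairs of CS, RA_Los and RA arrays, 3 had a correlation above 0.1 (range -0.34 to 0.31). No pairs of unlike number are given beside them, and the numbers 4 to 7 of batch 2 are those used here. Whether the replicate numbers pair the samples is therefore not settled. CS_Los arrays 1 to 3 are titled 7 to 9, so no block was fitted for them. With 1 array left out the count for CS against RA was 0 to 3, and the count for the muscle slope 3 to 6. The batch 2 count was 0 without RA 4, CS 5 and CS 7. Of all features, 13.8% were called in CS against RA without background correction and 5.51% in batch 2 alone. For the other settings and fits of this paragraph the share of all features is not given here.

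Median differences for CS_Los against CS with median centring were 0.181 for complex I, 0.104 for II, 0.211 for III and 0.287 for V, and with the authors' log2 values 0.202, 0.127 and 0.237 for I, II and III. For batch 2 against batch 1, median centring gave 0.782, 0.646, 0.652, 0.681 and 0.628 for complexes I to V, and the authors' values 0.858, 0.724, 0.744, 0.774 and 0.727. The mean of all kept probes gave -0.262 for complex II. Cox7a2 (0.209 and 0.286) and Ndufa13 (0.217 and 0.32) reversed between batches under median centring and the authors' values, and Ndufb5 (0.08) and Sdhd (0.068) under the authors' values.

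The other sign changes concern CS against RA, where none of these genes was called. With 75th percentile centring Uqcr11 was -0.094, Atp5g3 -0.062, Cox4i1 -0.014, Cox6b1 -0.058, Cox7a2l -0.003 and Cox7b -0.012. With median centring they were -0.13, -0.098, -0.05, -0.094, -0.039 and -0.048 in that order, and Cox8a -0.005. With the authors' values Uqcr11 was -0.077, Atp5g3 -0.047, Cox4i1 0, Cox6b1 -0.041 and Cox7b -0.004, and with cyclic loess Uqcr11 was -0.004. With arrayWeights Uqcr11 was -0.015, Cox7a1 -0.075, Cox6a1 0.002 and Cox7b -0.021. In batch 2 alone Ndufab1 was 0.034, Uqcr11 -0.035, Cox6a1 0.041 and Cox6b1 -0.053, and in batch 1 alone Atp5g3 was -0.077 and Cox7b -0.059. Without RA 4, CS 5 and CS 7, Uqcr11 was -0.004, Cox6a2 -0.027, Cox7a1 -0.176, Atp5g3 -0.009, Cox6b1 -0.014 and Cox7b -0.075. With the muscle term Uqcr11 was -0.003, Cox7a1 -0.089 and Cox7b -0.002. Leaving out 1 array gave -0.015 to 0.035 for Uqcr11, -0.081 to 0.345 for Cox7a1, -0.015 to 0.039 for Atp5g3, -0.074 to 0.027 for Cox6a1, -0.007 to 0.058 for Cox6b1, -0.065 to 0.088 for Cox7b and -0.136 to 0.009 for Ndufab1. The cause of these changes was not tested. Ndufb11 and Uqcrfs1, whose probes were at background on many arrays, are measured least well, and 3 arrays a group limit the losartan comparisons.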
